A study of Macaca mulatta with 11 samples.

Results

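The genes described here carry cyclic nucleotide and G protein signalling in cumulus cells, which enclose the oocyte in the ovarian follicle. They were chosen by symbol: RGS genes, PDE genes, the G protein alpha, beta and gamma subunits, ADCY and GUCY genes, the PRKA kinase subunits and PRKG, AKAP genes, CREB genes and CREM, and RAPGEF genes. The rule used no measured value, but it was chosen with earlier results of these data known. It found 109 of the 14132 genes with a symbol of their own on the array. Cyclic AMP and cyclic GMP are small messengers made by cyclases and broken down by phosphodiesterases. In the follicle, hormone receptors act through G proteins on adenylyl cyclase, RGS proteins shorten the life of the active G protein, and cyclic AMP acts through protein kinase A, the EPAC exchange factors and the CREB family of transcription factors. In mammals cyclic GMP made in the follicle cells passes into the oocyte and helps to hold meiosis until the ovulatory LH surge.

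RNA of rhesus monkey (Macaca mulatta) cumulus cells was hybridised to 11 Affymetrix Rhesus Macaque arrays, with 1 sample to an array. All cells came from FSH-stimulated cycles. The IVM group (n = 3) held cumulus cells of cumulus-oocyte complexes matured in culture, the VVM group (n = 4) those of complexes matured in the animal after hCG, an LH-like trigger, and the PM group (n = 4) those of immature complexes taken before maturation, after FSH alone. IVM was set against VVM to find cumulus genes that could mark oocyte quality, and PM was the starting point for both. It is not stated whether samples in a group were taken from different animals. The p-values therefore reflect the scatter among the samples at hand, which may be technical, and the small number of arrays limits the precision.

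Values are RMA signal on the log2 scale, in which 1 unit is a 2-fold change of signal. Each gene was read from its brightest probe set, and signal over background is unknown. Levels were compared within a gene only. A gene was called where limma's moderated test gave a Benjamini-Hochberg adjusted p under 0.05, adjusted over all 52766 probe sets of the array. Differences are given as first group minus second group, with their standard error. In these bulk samples fewer cells of a type and less RNA per cell cannot be told apart.

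Some arrays stood apart. The summed signal of the 12 measured cumulus and granulosa markers lay between 50226 and 62638.2 in the 11 arrays, with SERPINE2 and INHA among its largest parts. Markers of the expanded cumulus were not bright everywhere: PTX3 was at 2.63 to 2.76 in PM and at 2.94 in IVM replicate 3, and TNFAIP6 was at 4.42 to 4.82 in PM, below the array medians. Replicate 1 of PM had a summed signal of 2517 over 9 oocyte markers, against 722.5 to 804.7 in the other PM arrays. Replicates 2 and 3 of VVM had sums of 2071.6 and 5760.5 over 9 leukocyte markers, against 746.1 and 657.6 in VVM replicates 1 and 4, 618.1 to 864.3 in IVM and 1306.9 to 1502.2 in PM. The PM sums came mostly from CSF1R (9.95 to 10.21 in PM). The mean log2 signal of 4 other leukocyte markers was 5.41 and 5.36 in VVM replicates 1 and 4, against 4.23 to 4.56 in PM, and 7 of the 9 markers were called higher in VVM than in PM. Erythroid markers (2 of 6 measured) summed to 171.2 to 212.3 in IVM, 390.7 to 1086.8 in VVM and 240.7 to 474.9 in PM. Endothelial markers (6 of 6) summed to 389 to 421.1 in IVM, 365.8 to 1123.8 in VVM and 298.7 to 331 in PM. Theca and stroma markers (5 of 8) summed to 377.1 to 867.7 in IVM, 360.4 to 1362.4 in VVM and 210.7 to 283.3 in PM. The part of these cells in the differences below was not tested, other than by the alternatives given for the leukocyte markers. The hybridisation control probes averaged 11.63 ± 0.43 in IVM, 10.72 ± 0.44 in VVM and 9.76 ± 0.22 in PM (log2, SD, n = 3, 4 and 4), and no 2 groups overlapped, so that in all 3 comparisons this technical measure and the group cannot be told apart. The difference in signal between 3′ and 5′ control probes, a measure of RNA integrity and amplification, was 3.16 ± 0.41 in IVM, 2.99 ± 0.17 in VVM and 2.72 ± 0.11 in PM.

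IVM cells differed from VVM cells in 11 of the 109 genes. Of these, 2 were higher in IVM, RGS19 and RGS7, and 9 were lower: the EPAC and RAP exchange factors RAPGEF4 and RAPGEF2, the inhibitory G protein subunits GNAI1 and GNAI3, the CREB-related genes CREB1, CREBRF and CREBZF, the phosphodiesterase PDE7A and the kinase anchor AKAP17A. The 11 genes are 10.1% of the 109, against 16.7% called of all 14132 genes. By direction, 1.83% of the 109 were higher in IVM against 9.06% of all genes, and 8.26% were lower against 7.63%. The median difference was 0.08 for these genes and 0.08 for all genes, and the median absolute difference was 0.25 against 0.27.

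Against PM, many more genes passed the test. In IVM 45 of 109 were called, 25 higher and 20 lower, which is 41.3% against 45.9% of all genes. The all-gene shares were 25.0% higher and 20.9% lower. In VVM 36 were called, 20 higher and 16 lower, which is 33.0% against 39.8% of all genes, with all-gene shares of 18.0% higher and 21.8% lower. Without PM replicate 1 and VVM replicates 2 and 3 together, 15 genes were called for VVM against PM. With the hybridisation controls as a covariate, 0 genes were called for IVM against PM (18 at an unadjusted p under 0.05), 12 for VVM against PM and 3 for IVM against VVM. When each array was centred on its own median, the splits were 13 higher and 23 lower for IVM and 13 higher and 21 lower for VVM. Shares of all genes under these alternatives are not given here, so the changes in count cannot be taken as particular to the 109 genes. Of the 25 rises in IVM, 20 were under 2-fold, and 12 of these small rises were lost on centring, while 0 of the 20 falls were lost. Of the 20 rises in VVM, 17 were under 2-fold and 7 were lost, while 0 of the 16 falls were lost. All PM array medians lay below those of IVM and VVM, so centring lowers every difference from PM. Rises then shrink and falls grow, so these losses cannot show which direction is the firmer. The median differences of the 109 genes were 0.17 in IVM and 0.10 in VVM, against 0.12 and 0.04 for all genes.

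The samples of IVM and VVM did not overlap in 29 genes (26.6%, against 28.6% of all genes), those of IVM and PM in 51 (46.8%, against 50.3%) and those of VVM and PM in 40 (36.7%, against 41.9%). Changes of at least 2-fold were fewer. They were found in 8 genes between IVM and VVM (7.34%, against 7.98% of all genes), in 16 between IVM and PM (14.7% against 17.9%) and in 10 between VVM and PM (9.17% against 17.0%). IVM and VVM share the PM arrays as their baseline, so their 2 lists are not independent. Of the 25 genes called in both, 11 were higher in both, 13 lower in both, and RAPGEF4 moved in opposite directions. Altogether 51 genes were called in no comparison, 27 in 1, 28 in 2 and 3 in all 3, namely CREB1, RAPGEF4 and RGS7. The matching shares of all genes are not given here. These counts and those of shared direction therefore show nothing particular to the genes described.

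**Figure D1:**
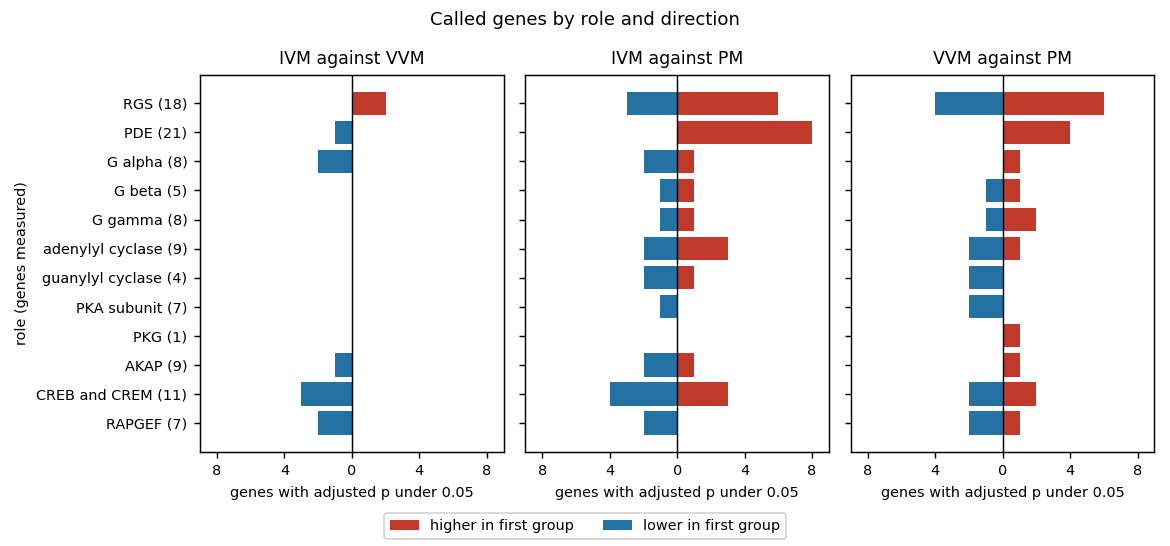
Number of genes with an adjusted p under 0.05 in each role, with genes higher in the first group drawn to the right of 0 and genes lower drawn to the left, in each of the 3 comparisons. Role sizes stand in brackets. PDE genes were higher than in PM in 8 of 21 cases for IVM and 4 of 21 for VVM. They were lower in 0 cases for both. Of all genes, 25.0% were higher and 20.9% lower in IVM, and 18.0% higher and 21.8% lower in VVM.

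Among the G protein alpha subunits, GNAI1 and GNAI3, which inhibit adenylyl cyclase, were lower in IVM than in VVM. GNAI1 was at 9.77, 9.04 and 9.34 in IVM, at 10.95, 10.89, 10.90 and 11.61 in VVM, and at 10.05, 11.47, 10.17 and 10.52 in PM. Every IVM array lay below every VVM array and every PM array, while VVM and PM overlapped. The difference was -1.70 ± 0.32 for IVM against VVM (3.26-fold, adjusted p = 0.00675) and -1.17 ± 0.32 for IVM against PM (adjusted p = 0.0148, and 0.0635 without IVM replicate 2). The other probe set of GNAI1 gave -1.20 for IVM against VVM (adjusted p = 0.0696) and 0.61 for IVM against PM (adjusted p = 0.224), so the fall from the PM level was seen with 1 of its 2 probe sets. For VVM against PM that other probe set was called higher (1.81, adjusted p = 0.00304), while the brightest gave 0.54 (adjusted p = 0.196).

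GNAI3 was at 11.38, 11.40 and 12.07 in IVM, at 12.57, 12.46, 12.15 and 12.36 in VVM and at 12.68, 12.85, 12.81 and 12.68 in PM. With this brightest probe set the groups did not overlap, with IVM lowest and PM highest. IVM was lower than VVM by 0.77 ± 0.17 (1.70-fold, adjusted p = 0.0148, with 3 of 4 probe sets called lower), a call that was lost without IVM replicate 1 or 2. IVM was 2.20-fold below PM (-1.14 ± 0.17, adjusted p = 0.000521), and VVM differed from PM by -0.37 (adjusted p = 0.0976), which did not pass. In the other 3 probe sets the VVM mean was above the PM mean, in 1 of them past the test (0.66, adjusted p = 0.0440). Of the other alpha subunits, GNAO1 was higher in VVM than in PM by 0.43 ± 0.13 and GNAT1, the rod transducin subunit, was higher in IVM than in PM by 0.59 ± 0.14. Both changes were under 2-fold, and the GNAO1 call was lost in 5 cases when single arrays were left out (adjusted p up to 0.0692).

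The largest falls from PM among all G protein subunits were those of GNB5, an atypical beta subunit that partners the RGS proteins of the R7 family (RGS6, RGS7, RGS9 and RGS11) in place of a gamma subunit. GNB5 was at 4.58, 5.36 and 6.85 in IVM, at 5.42, 5.24, 4.95 and 5.51 in VVM and at 9.85, 9.65, 9.22 and 9.80 in PM. All IVM and VVM samples lay far below the lowest PM sample. The difference was -4.03 ± 0.41 in IVM (16.4-fold, adjusted p = 4.81e-05) and -4.35 ± 0.38 in VVM (20.4-fold, adjusted p = 2.17e-05). Both of its probe sets were called lower in both comparisons, the second one with differences of -2.28 in IVM and -2.42 in VVM. The VVM mean lay below the median signal of the arrays (5.34 to 5.53).

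The other beta and gamma subunits changed less. GNB1, a common beta subunit, was higher in IVM than in PM by 0.70 ± 0.17 with its brightest probe set, but another probe set gave -0.96 (adjusted p = 0.00815), so its direction depends on the probe set. GNB3 was higher in VVM than in PM by 0.27 ± 0.09. Among gamma subunits, GNGT2 was higher than in PM in IVM (0.57 ± 0.10) and in VVM (0.55 ± 0.10), GNG4 was higher in VVM (0.66 ± 0.11), and GNG7 was lower in IVM (-0.77 ± 0.15) and in VVM (-0.47 ± 0.14). None of the beta and gamma subunits was called between IVM and VVM. Leaving out single arrays ended the GNB3 call of VVM against PM in 7 cases (adjusted p up to 0.0815) and the GNG7 call of VVM against PM in 5 (up to 0.0662).

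The 18 RGS genes and their binding proteins held the largest rise and several of the largest falls. RGS2, which ends signalling through Gq and also dampens adenylyl cyclase, was at 13.51, 13.21 and 11.98 in IVM, at 13.35, 12.02, 13.49 and 12.60 in VVM and at 10.83, 5.89, 6.003 and 6.30 in PM. Every IVM and VVM sample was above every PM sample, and PM replicate 1, the array with the high oocyte marker sum, was far above the other 3. The difference was 5.65 ± 1.01 in IVM (50.1-fold, adjusted p = 0.00153) and 5.61 ± 0.94 in VVM (48.8-fold, adjusted p = 0.00112). Without PM replicate 1 the differences were 6.84 and 6.80. Whether oocyte RNA has a part in the high RGS2 value of that array was not tested. The other probe set of RGS2 rose by 0.94 in IVM and 0.96 in VVM. IVM and VVM overlapped and differed by 0.04 (adjusted p = 0.987).

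RGS10, a regulator of inhibitory G proteins, was at 5.69, 5.30 and 7.04 in IVM, at 7.08, 7.03, 6.43 and 7.17 in VVM and at 10.41, 10.31, 9.60 and 10.31 in PM. It fell by 4.14 ± 0.36 in IVM (17.7-fold, adjusted p = 2.30e-05) and by 3.23 ± 0.34 in VVM (9.36-fold, adjusted p = 6.18e-05). Both matured groups lay wholly below PM. This large fall was seen with 1 of its 3 probe sets. Of the other probe sets, 1 was higher in IVM than in PM by 0.66 (adjusted p = 0.0130).

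RGS7, an R7 regulator of inhibitory G proteins, was lowest in VVM. It was at 7.99, 9.07 and 9.44 in IVM, at 7.74, 7.27, 7.14 and 7.80 in VVM and at 9.84, 10.28, 9.42 and 10.49 in PM. VVM did not overlap with either group, while IVM and PM overlapped in 1 sample each. VVM differed from PM by -2.52 ± 0.32 (5.73-fold lower, adjusted p = 0.000192), with both probe sets called. IVM was above VVM by 1.35 ± 0.34 (2.54-fold, adjusted p = 0.0283) and below PM by 1.17 ± 0.34 (adjusted p = 0.0195). The call of IVM against VVM was lost without IVM replicate 2 or 3 or VVM replicate 2 or 3 (adjusted p up to 0.109), and the call of IVM against PM was lost without IVM replicate 1 or PM replicate 4 (adjusted p up to 0.0809).

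RGS19, which acts on inhibitory alpha subunits and has 1 probe set here, was higher in IVM than in both other groups. It was at 7.65, 8.07 and 8.37 in IVM, at 6.18, 6.92, 7.17 and 6.82 in VVM and at 7.01, 6.77, 6.83 and 6.92 in PM. The 3 IVM samples lay above all 8 others. IVM exceeded VVM by 1.26 ± 0.22 (2.40-fold, adjusted p = 0.00496) and PM by 1.15 ± 0.22 (2.22-fold, adjusted p = 0.00242), and both calls held when any single array was left out.

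RGS4, which acts on inhibitory and Gq alpha subunits, was at 9.05, 7.74 and 10.73 in IVM, at 8.57, 7.57, 7.96 and 6.44 in VVM and at 9.81, 9.34, 11.07 and 10.20 in PM. VVM lay wholly below PM (-2.47 ± 0.62, 5.53-fold, adjusted p = 0.0113), whereas IVM overlapped with both groups. IVM differed from VVM by 1.54 (adjusted p = 0.168) and from PM by -0.93 (adjusted p = 0.283), and neither passed. A dimmer RGS4 probe set was called higher in IVM than in VVM (1.40, adjusted p = 0.0171). RGS16 was at 6.13, 6.66 and 5.70 in IVM, at 6.68, 6.38, 6.80 and 5.84 in VVM and at 5.62, 5.17, 5.56 and 5.59 in PM. Its rise in VVM passed (0.94 ± 0.24, adjusted p = 0.0121, with both probe sets called), and its difference of 0.68 in IVM did not (adjusted p = 0.0548).

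Smaller changes completed the RGS group. RGS9, the R7 regulator of rod and cone transducin, was at 6.62, 7.10 and 6.37 in IVM, at 6.51, 6.13, 6.25 and 6.24 in VVM and at 5.48, 5.78, 5.71 and 5.50 in PM, without overlap between either matured group and PM. Its rise was 1.07 ± 0.17 in IVM and 0.66 ± 0.16 in VVM. RGS9BP, its membrane anchor, rose by 0.53 ± 0.12 in IVM and 0.52 ± 0.11 in VVM, and RGS11, another R7 member, by 0.45 ± 0.16 in IVM and 0.53 ± 0.15 in VVM. RGS12 fell by 0.37 ± 0.12 in IVM and by 0.53 ± 0.11 in VVM with its brightest probe set, but another of its 5 probe sets rose by 0.38 in IVM (adjusted p = 0.0136) and by 0.54 in VVM (adjusted p = 0.00150), so its direction depends on the probe set. RGS13 was higher in IVM than in PM (0.41 ± 0.14), and RGS14, an RGS protein that also binds inhibitory alpha subunits through its GoLoco motif, was higher in VVM than in PM (0.66 ± 0.17). None of these 6 genes was called in the direct test of IVM against VVM. Leaving out single arrays ended the RGS11 call in IVM in 9 of 11 cases (adjusted p up to 0.154), the RGS12 call in IVM in 6 (up to 0.0861) and the RGS13 call in IVM in 5 (up to 0.118), and the RGS11 call in VVM without VVM replicate 1 or PM replicate 1 (up to 0.0511).

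**Figure D2:**
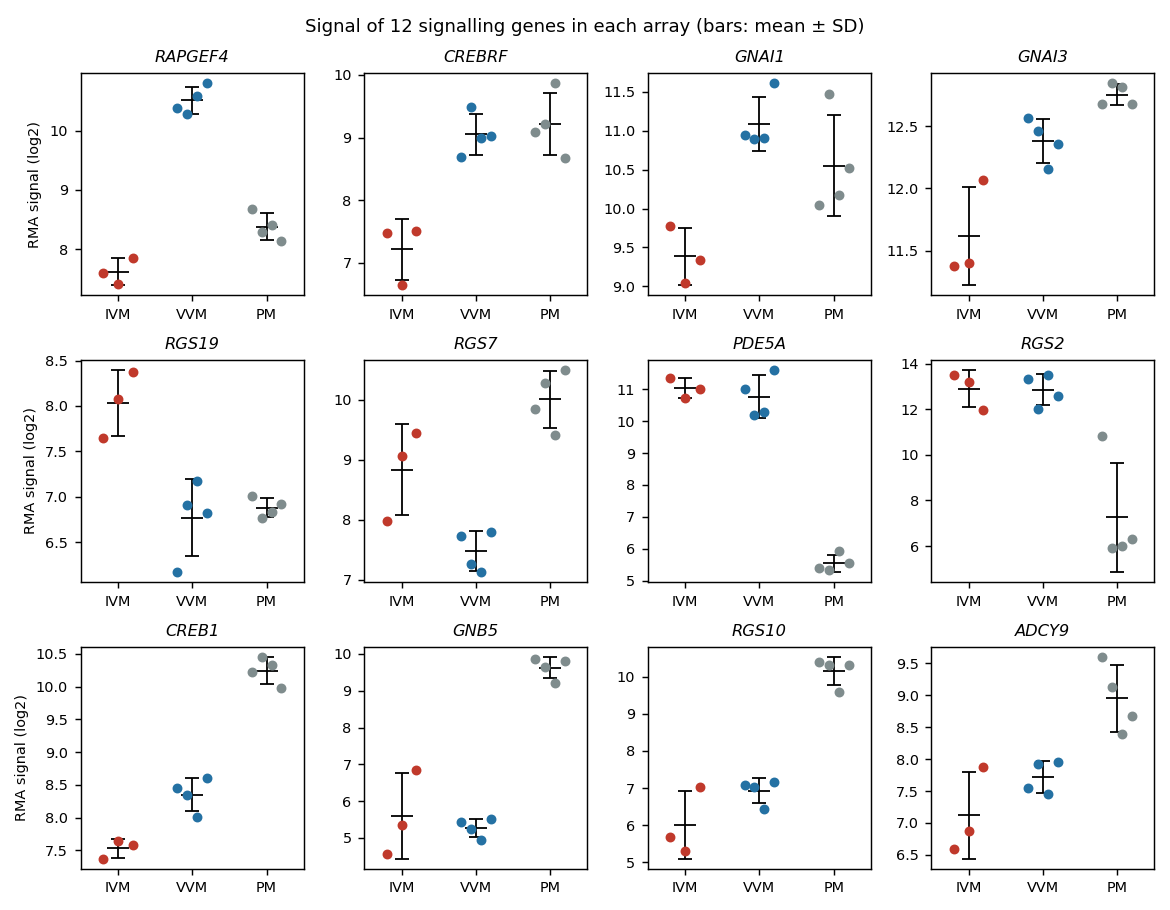
RMA signal (log2) of 12 genes in each array, with groups in the order IVM, VVM and PM, points for single arrays and bars for mean and SD. RAPGEF4 is high in VVM alone, PDE5A and RGS2 are low in PM with 1 PM array of RGS2 at 10.83, and CREB1, GNB5, RGS10 and ADCY9 are highest in PM.

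Adenylyl cyclases make cyclic AMP, and the members that fell most from PM were ADCY9 and ADCY6. ADCY9 was at 6.60, 6.87 and 7.88 in IVM, at 7.55, 7.93, 7.46 and 7.95 in VVM and at 9.60, 9.13, 8.39 and 8.68 in PM. Both matured groups lay below PM. The difference was -1.83 ± 0.33 in IVM (3.56-fold, adjusted p = 0.00150) and -1.23 ± 0.30 in VVM (2.34-fold, adjusted p = 0.0105), and IVM and VVM differed by -0.61 (adjusted p = 0.268).

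ADCY6, an isoform inhibited by calcium, was at 7.26, 7.61 and 7.49 in IVM, at 7.33, 7.33, 7.29 and 7.54 in VVM and at 8.40, 8.15, 8.23 and 8.42 in PM. The matured groups overlapped with each other and lay below PM, by 0.84 ± 0.12 in IVM (adjusted p = 0.000441) and 0.93 ± 0.11 in VVM (adjusted p = 0.000163). In IVM 3 cyclases were higher than in PM: ADCY1 (0.51 ± 0.14) and ADCY8 (0.47 ± 0.14), which calcium and calmodulin stimulate, and ADCY7 (0.50 ± 0.10). In VVM only ADCY10, the soluble bicarbonate-sensitive cyclase, was higher (0.41 ± 0.13). ADCY3 averaged 5.91 ± 0.22 in IVM, 5.69 ± 0.21 in VVM and 5.79 ± 0.15 in PM (SD) and passed no test. The ADCY1 call was lost without IVM replicate 1 or 2 (adjusted p up to 0.0613), the ADCY8 call without IVM replicate 2 or PM replicate 1 (up to 0.0850) and the ADCY10 call without VVM replicate 2 or 3 or PM replicate 1 or 4 (up to 0.0849).

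The guanylyl cyclases, which make cyclic GMP, were measured for 4 genes. GUCY1A2, an alpha subunit of the nitric oxide-sensitive soluble enzyme, was at 6.42, 6.16 and 6.26 in IVM, at 6.78, 6.60, 6.64 and 6.48 in VVM and at 7.15, 6.91, 7.01 and 6.87 in PM. The 3 groups did not overlap, with IVM lowest, although IVM and VVM did not pass the test (-0.34, adjusted p = 0.0883). The fall from PM was 0.70 ± 0.12 in IVM (adjusted p = 0.00107) and 0.36 ± 0.11 in VVM (adjusted p = 0.0289, up to 0.0854 when single arrays were left out, with the call lost in 5 cases). GUCY2C, the guanylin receptor, fell by 0.34 ± 0.11 in IVM and by 0.38 ± 0.10 in VVM. GUCY2D, a retinal cyclase, was higher in IVM than in PM by 0.45 ± 0.13. The IVM calls of GUCY2C and GUCY2D were lost without IVM replicate 1, IVM replicate 2 or PM replicate 1 (adjusted p up to 0.0806 and 0.0735). All these changes were under 2-fold.

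Among the 21 PDE genes, most of which code for enzymes that degrade cyclic nucleotides, the change in PDE5A was the largest. PDE5A, an enzyme specific for cyclic GMP, was at 11.35, 10.73 and 10.999 in IVM, at 11.01, 10.20, 10.28 and 11.60 in VVM and at 5.38, 5.32, 5.92 and 5.56 in PM. Every IVM and VVM sample lay far above every PM sample. The rise was 5.48 ± 0.31 in IVM (44.7-fold, adjusted p = 3.48e-06) and 5.23 ± 0.29 in VVM (37.5-fold, adjusted p = 1.84e-06). The IVM and VVM levels overlapped and differed by 0.25 (adjusted p = 0.648). Of its 5 probe sets, 3 rose in both comparisons, the dimmer ones by 1.27 and 0.51 in IVM and by 1.15 and 0.52 in VVM.

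The cyclic AMP-specific phosphodiesterase PDE7A was the only PDE gene called between IVM and VVM with its brightest probe set. It was at 8.27, 7.75 and 8.03 in IVM, at 9.41, 8.77, 8.47 and 10.03 in VVM and at 8.75, 8.69, 8.21 and 8.56 in PM. IVM lay below VVM without overlap (-1.15 ± 0.31, 2.23-fold, adjusted p = 0.0365). The call was lost without any 1 of 6 arrays, namely the 3 IVM arrays, VVM replicate 1 or 4 or PM replicate 4 (adjusted p up to 0.136), and PDE7A did not pass against PM in either group.

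PDE4A, another cyclic AMP-specific enzyme, rose in both matured groups, by 0.65 ± 0.20 in IVM (adjusted p = 0.0256) and 0.64 ± 0.19 in VVM (adjusted p = 0.0244). It was at 6.20, 5.86 and 5.63 in IVM, at 5.87, 5.89, 6.37 and 5.41 in VVM and at 5.29, 5.06, 5.32 and 5.30 in PM. Its IVM call was lost without IVM replicate 1 or 2 or PM replicate 2 (adjusted p up to 0.107), and its VVM call without VVM replicate 2 or 3 or PM replicate 2 (up to 0.0622). PDE1A, which calcium and calmodulin activate, rose by 0.65 ± 0.16 in IVM and 0.43 ± 0.14 in VVM, and PDE6A, a subunit of the rod enzyme, by 1.12 ± 0.15 in IVM and 0.69 ± 0.14 in VVM. The second probe set of PDE6A was lower in IVM than in PM (-0.92, adjusted p = 0.00383) and than in VVM (-1.20, adjusted p = 0.00323). The direction of PDE6A in IVM therefore depends on the probe set. In IVM PDE4C (0.43 ± 0.13), PDE6C (0.39 ± 0.10), PDE8A (0.43 ± 0.15) and PDE11A (0.40 ± 0.13) also rose. Leaving out single arrays ended the IVM calls of PDE4C, PDE8A and PDE11A in 4, 5 and 5 cases (adjusted p up to 0.121) and the VVM call of PDE1A in 7 (up to 0.104). In all, 8 of 21 rose in IVM (38.1%, against 25.0% of all genes) and 4 in VVM (19.0%, against 18.0%), and 0 fell in either. With centred arrays, 3 rose in IVM (PDE1A, PDE5A and PDE6A) and 3 in VVM (PDE4A, PDE5A and PDE6A).

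Several phosphodiesterases known from follicle work passed no test with their brightest probe sets. PDE4B was at 7.81, 6.89 and 7.99 in IVM, at 6.82, 9.64, 9.12 and 6.91 in VVM and at 6.37, 7.77, 7.98 and 6.43 in PM. Its high VVM values were in replicates 2 and 3, the arrays with high leukocyte marker sums. Without these arrays and PM replicate 1, the difference of VVM from PM was -0.53, against 0.98 with all arrays. PDE3A, which in mammals degrades cyclic AMP in the oocyte, averaged 4.57 ± 0.18 in IVM, 4.69 ± 0.35 in VVM and 4.22 ± 0.17 in PM (SD), below the median of every array, and PM replicate 1 had 4.07. PDE3B averaged 5.25 ± 0.07 in IVM, 5.22 ± 0.23 in VVM and 4.97 ± 0.30 in PM, and PDE4D averaged 5.50 ± 0.31 in IVM, 5.40 ± 0.22 in VVM and 5.21 ± 0.17 in PM. PDE7B averaged 5.44 ± 0.34 in IVM, 5.21 ± 0.30 in VVM and 5.27 ± 0.11 in PM. PDE8B averaged 5.58 ± 0.18 in IVM, 5.64 ± 0.12 in VVM and 5.43 ± 0.10 in PM, and PDE10A averaged 5.67 ± 0.41 in IVM, 5.39 ± 0.13 in VVM and 5.27 ± 0.14 in PM. A dimmer PDE3B probe set was called higher than in PM in IVM (0.47, adjusted p = 0.0146) and in VVM (0.53, adjusted p = 0.00683), and a dimmer PDE8B probe set in VVM (1.08, adjusted p = 0.0222).

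**Figure D3:**
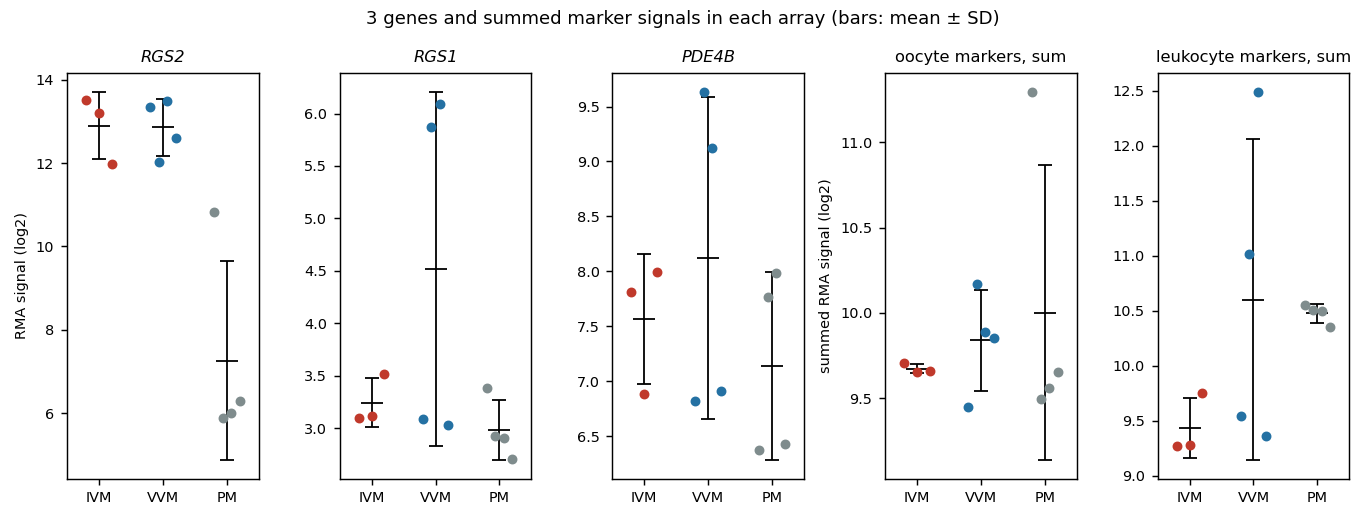
Signal of RGS2, RGS1 and PDE4B (log2) beside summed marker signals (log2 of the sum) in each array, with groups in the order IVM, VVM and PM and bars for mean and SD. The high RGS1 and PDE4B values of VVM are those of replicates 2 and 3, whose leukocyte sums were 2071.6 and 5760.5, and the high RGS2 value of PM is that of replicate 1, whose oocyte sum was 2517.

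RGS1, a regulator known from lymphocytes, showed the same arrays as PDE4B. It was at 3.10, 3.12 and 3.52 in IVM, at 3.09, 5.87, 6.09 and 3.03 in VVM and at 3.38, 2.92, 2.91 and 2.70 in PM, and it passed no test. RGS18, known from platelets and blood cells, had 4.64 and 4.25 in VVM replicates 2 and 3, against 3.50 to 3.72 in the other VVM arrays and 3.41 to 3.60 in PM. All 3 genes were high in the arrays with high sums over 9 of 12 leukocyte markers, the other 3 markers not being measured, and the part of leukocytes in these values was not tested.

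The subunits of protein kinase A, the main cyclic AMP receptor, changed little. PRKAR2B, a regulatory subunit of the type II enzyme, was at 11.53, 11.91 and 12.32 in IVM, at 11.87, 11.72, 11.69 and 12.07 in VVM and at 12.64, 12.43, 12.53 and 12.42 in PM. Both matured groups lay below PM, by 0.59 ± 0.17 in IVM (adjusted p = 0.0187) and 0.67 ± 0.16 in VVM (adjusted p = 0.00862), and the IVM call was lost without IVM replicate 1 or 2 (adjusted p up to 0.0793). PRKAR1B was lower in VVM than in PM by 0.39 ± 0.13, a call lost in 6 cases when single arrays were left out (adjusted p up to 0.0872).

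The catalytic subunits PRKACA and PRKACB passed no test with their brightest probe sets. Other PRKACB probe sets were called lower in IVM than in PM (-1.40, adjusted p = 0.00374) and lower in IVM than in VVM (-0.71, adjusted p = 0.0353). PRKACA averaged 5.48 ± 0.36 in IVM, 5.15 ± 0.14 in VVM and 5.43 ± 0.17 in PM (SD), and PRKACB averaged 9.07 ± 0.57 in IVM, 9.76 ± 0.47 in VVM and 9.63 ± 0.27 in PM. The regulatory subunit PRKAR1A averaged 10.49 ± 0.34 in IVM, 10.35 ± 0.27 in VVM and 10.33 ± 0.13 in PM, and PRKAR2A averaged 5.91 ± 0.15 in IVM, 5.73 ± 0.13 in VVM and 5.74 ± 0.17 in PM, and neither passed. PRKG1, the cyclic GMP-dependent kinase, was at 5.15, 4.74 and 4.86 in IVM, at 5.82, 5.51, 5.20 and 5.31 in VVM and at 4.75, 4.44, 5.03 and 4.22 in PM. It was higher in VVM than in PM by 0.85 ± 0.19 (1.80-fold, adjusted p = 0.00644), with 1 of 3 probe sets, at a signal near the median of the arrays.

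Of 9 AKAP genes, which tether protein kinase A within the cell, AKAP17A was lower in IVM than in VVM. It was at 8.11, 8.41 and 8.25 in IVM, at 8.95, 9.29, 8.63 and 9.66 in VVM and at 9.63, 9.88, 9.72 and 9.42 in PM. The difference was -0.88 ± 0.21 (adjusted p = 0.0233, lost without IVM replicate 1, IVM replicate 3 or VVM replicate 2), and -1.41 ± 0.21 for IVM against PM (adjusted p = 0.000573). Its other probe sets gave 0.20 and 0.38 for IVM against VVM, and 1 of them rose in IVM against PM by 0.74 (adjusted p = 0.00160), so its direction depends on the probe set. AKAP9, a scaffold of the Golgi and centrosome, was at 6.93, 7.50 and 7.80 in IVM, at 8.01, 7.97, 8.08 and 8.73 in VVM and at 8.94, 8.38, 8.63 and 8.999 in PM, and it was lower in IVM than in PM by 1.32 ± 0.25 (2.50-fold, adjusted p = 0.00182). AKAP6, a nuclear envelope scaffold, rose by 0.45 ± 0.12 in IVM and 0.33 ± 0.11 in VVM, the second a call lost in 7 cases when single arrays were left out (adjusted p up to 0.108). AKAP1 passed no test with its brightest probe set. Of its 3 probe sets, 1 was called lower than in PM in IVM (-1.76, adjusted p = 4.37e-05) and in VVM (-1.54, adjusted p = 6.57e-05).

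RAPGEF4 (EPAC2) showed the widest gap between the 2 matured groups. EPAC proteins are exchange factors that load the small GTPase RAP when cyclic AMP binds them. RAPGEF4 was at 7.59, 7.41 and 7.86 in IVM, at 10.37, 10.27, 10.59 and 10.80 in VVM and at 8.68, 8.29, 8.41 and 8.14 in PM. The 3 groups did not overlap, with VVM highest and IVM lowest. IVM was below VVM by 2.89 ± 0.17 (7.41-fold, adjusted p = 1.92e-05) and below PM by 0.76 ± 0.17 (1.70-fold, adjusted p = 0.00517), while VVM was above PM by 2.13 ± 0.16 (4.37-fold, adjusted p = 1.01e-05). All 3 probe sets were called for IVM against VVM and for VVM against PM, and 1 of 3 for IVM against PM. No single array left out ended a call.

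The other exchange factors showed smaller differences. RAPGEF2, a RAP exchange factor, was at 10.79, 10.60 and 11.17 in IVM, at 12.26, 12.02, 11.60 and 11.93 in VVM and at 10.75, 11.96, 11.64 and 10.76 in PM. IVM was lower than VVM by 1.10 ± 0.29 (2.14-fold, adjusted p = 0.0341) with 1 of 3 probe sets, and the call was lost without IVM replicate 1 or 2 or VVM replicate 1, 2 or 4 (adjusted p up to 0.129). RAPGEF1, an exchange factor of adaptor complexes, was at 8.21, 8.68 and 8.76 in IVM, at 8.23, 8.89, 8.41 and 8.50 in VVM and at 9.47, 9.78, 9.54 and 9.57 in PM. It fell by 1.04 ± 0.18 in IVM (adjusted p = 0.00111) and by 1.08 ± 0.16 in VVM (adjusted p = 0.000597), with 2 of 5 probe sets. Both of these can cross-hybridise by their design names, and without such probe sets neither call was made (-0.11 in IVM and -0.29 in VVM). RAPGEF3 (EPAC1) was lower in VVM than in PM by 0.34 ± 0.10 (lost in 4 cases when single arrays were left out, adjusted p up to 0.0720), and its difference between IVM and VVM did not pass. RAPGEF6 passed no test with its brightest probe set, yet 4 of its 9 probe sets were called below PM in IVM and 3 in VVM.

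The CREB group held the clearest falls among the nuclear members. CREB1, the transcription factor that protein kinase A phosphorylates, was at 7.37, 7.65 and 7.58 in IVM, at 8.46, 8.34, 8.01 and 8.60 in VVM and at 10.22, 10.45, 10.33 and 9.97 in PM. The 3 groups were fully separate, with IVM lowest and PM highest. IVM was below VVM by 0.82 ± 0.16 (1.76-fold, adjusted p = 0.00808) and below PM by 2.71 ± 0.16 (6.54-fold, adjusted p = 4.46e-06), and VVM was below PM by 1.89 ± 0.15 (3.71-fold, adjusted p = 1.36e-05). These calls held without any single array, but rest on 1 of 2 probe sets. The dimmer probe set gave -0.26, -0.28 and -0.02 in the same comparisons and passed in none.

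CREBRF, which regulates CREB3, was at 7.48, 6.65 and 7.51 in IVM, at 8.69, 9.49, 8.999 and 9.02 in VVM and at 9.09, 9.21, 9.87 and 8.68 in PM. IVM lay wholly below both other groups, which overlapped. The difference was -1.84 ± 0.29 from VVM (3.57-fold, adjusted p = 0.00306) and -1.997 ± 0.29 from PM (3.99-fold, adjusted p = 0.000468), with 3 of 4 probe sets called in both. The bZIP gene CREBZF was at 8.70, 8.91 and 8.25 in IVM, at 9.81, 9.98, 10.11 and 9.45 in VVM and at 9.81, 9.80, 10.25 and 8.59 in PM. Its fall of 1.22 ± 0.33 against VVM (adjusted p = 0.0373) was lost in 7 cases when single arrays were left out (adjusted p up to 0.103), and that of 0.99 ± 0.33 against PM in 5 (up to 0.110).

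CREBBP, an acetyltransferase that CREB1 recruits, was at 8.52, 8.39 and 8.60 in IVM, at 8.36, 8.80, 8.94 and 9.04 in VVM and at 9.23, 9.26, 9.15 and 9.27 in PM. It fell by 0.72 ± 0.15 in IVM (adjusted p = 0.00366) and by 0.44 ± 0.14 in VVM (adjusted p = 0.0339, lost in 6 cases when single arrays were left out, adjusted p up to 0.0744). The membrane-bound factor CREB3L1 rose by 0.79 ± 0.11 in IVM and 0.63 ± 0.10 in VVM, and CREB3 rose in VVM (0.51 ± 0.15, lost without PM replicate 2, adjusted p = 0.0608). In IVM CREB3L3 (0.38 ± 0.14) and CREB5 (0.66 ± 0.20) also rose, with calls lost in 6 and 2 cases (adjusted p up to 0.175 and 0.0729). Another CREB5 probe set gave -0.84 in IVM. CREM, an activator or repressor by isoform, was at 9.39, 7.80 and 8.39 in IVM, at 9.45, 9.46, 9.31 and 8.45 in VVM and at 7.66, 8.91, 8.50 and 7.63 in PM, and its difference of 0.99 ± 0.38 between VVM and PM did not pass (adjusted p = 0.0705). Of the other 5 CREM probe sets, 2 were called higher in VVM than in PM (0.76, adjusted p = 0.00602, and 0.88, adjusted p = 0.0384) and 1 in IVM than in PM (0.63, adjusted p = 0.0186).

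**Figure D4:**
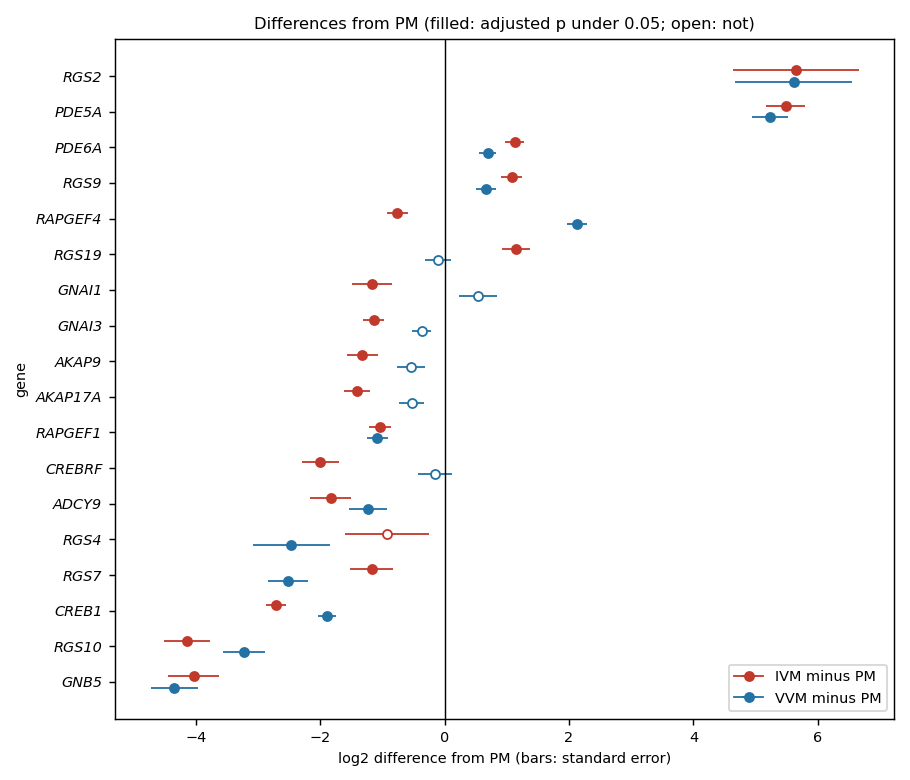
Log2 difference from PM with its standard error for the 18 genes called at 2-fold or more against PM in IVM or VVM, with IVM minus PM above VVM minus PM for each gene. Filled points passed an adjusted p of 0.05; RAPGEF4 is the gene with called differences on both sides of 0, at -0.76 in IVM and 2.13 in VVM.

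Probe sets of a gene did not always move together. Of the called genes with several probe sets, 1 of 10 between IVM and VVM, 3 of 29 between IVM and PM and 7 of 22 between VVM and PM had all of them called the same way. At least 1 probe set was called the other way for 0, 6 and 1 genes in these comparisons.

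**Figure D5:**
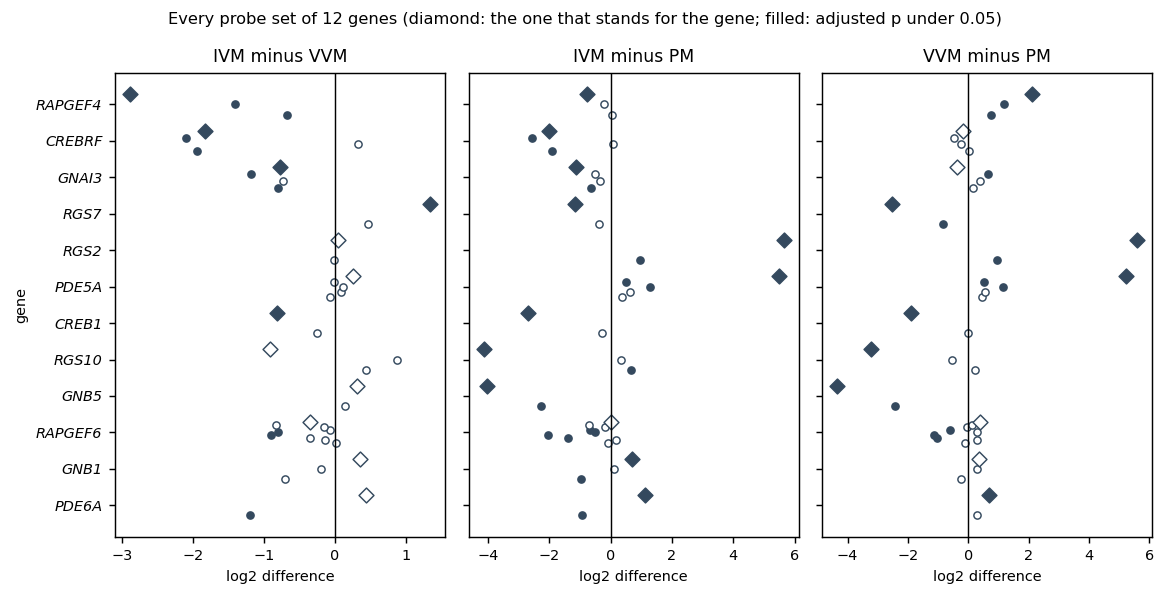
Log2 difference of every probe set of 12 genes in the 3 comparisons, with diamonds for the probe set that stands for the gene and filled symbols for an adjusted p under 0.05. The 3 RAPGEF4 probe sets lie below 0 together between IVM and VVM, while probe sets of GNB1 and PDE6A lie on both sides of 0 between IVM and PM.

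Several further members passed no test with their brightest probe sets. ADCYAP1R1, which the symbol rule took in although it is a receptor (for the peptide PACAP) and not a cyclase, averaged 10.08 ± 0.25 in IVM, 9.88 ± 0.14 in VVM and 9.94 ± 0.28 in PM (SD). The beta subunit GNB4 averaged 6.84 ± 0.24 in IVM, 6.45 ± 0.10 in VVM and 6.55 ± 0.21 in PM, and GNB1L, a beta-like protein, averaged 7.43 ± 0.25 in IVM, 6.90 ± 0.15 in VVM and 7.34 ± 0.34 in PM. The gamma subunit GNG11 averaged 7.65 ± 0.44 in IVM, 6.98 ± 0.31 in VVM and 7.52 ± 0.41 in PM. The retinal cyclase GUCY2F averaged 4.66 ± 0.05 in IVM, 4.58 ± 0.11 in VVM and 4.72 ± 0.09 in PM, and the exchange factor RAPGEF5 averaged 4.26 ± 0.37 in IVM, 4.38 ± 0.84 in VVM and 3.92 ± 0.24 in PM. Other probe sets were called for ADCYAP1R1 in IVM against PM (0.50, adjusted p = 0.0211) and for GNB1L in VVM against PM (-0.62, adjusted p = 0.0203).

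In 24 of the 109 genes all 3 group means lay below the array medians. Of these, 0 were called between IVM and VVM, 4 rose in IVM and 3 rose in VVM against PM, with differences of at most 0.59 and 0.43. Of all genes, 16.7% were called between IVM and VVM, and 25.0% rose in IVM and 18.0% in VVM against PM. The share called among all dim genes is not given here, so these counts show nothing particular to the 24 genes.

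Other genes of the same pathways, from lists written for this work, were counted beside the members. Among all genes, the share above PM was 25.0% in IVM and 18.0% in VVM, and the share below PM was 20.9% in IVM and 21.8% in VVM. The small lists below are to be read against these shares. They were chosen with earlier results of these data known, so a count above these shares is not a test of the pathway. Of 13 measured PKA inhibitors and CREB partners, 8 fell and 0 rose from the PM level in IVM, and 9 fell and 0 rose in VVM. ATF2, a bZIP factor of the cyclic AMP response element, averaged 5.83 ± 0.44 in IVM, 7.51 ± 0.45 in VVM and 9.74 ± 0.32 in PM (SD), which gave -1.69 for IVM against VVM, -3.91 for IVM against PM and -2.22 for VVM against PM, all called. EP300, an acetyltransferase related to CREBBP, averaged 7.48 ± 0.07 in IVM, 8.29 ± 0.25 in VVM and 9.25 ± 0.09 in PM. SIK1, a kinase that restrains CREB coactivators, differed from PM by -2.96 ± 0.54 in IVM and by -1.51 ± 0.50 in VVM. PKIG, a protein kinase A inhibitor, was higher in IVM than in VVM by 0.70 ± 0.15.

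Of 14 measured receptors and their regulators, 4 rose and 3 fell against PM in IVM, 3 rose and 2 fell in VVM, and ARRB2, a beta-arrestin, was higher in IVM than in VVM (0.80 ± 0.18). NPR2, the receptor cyclase that makes cyclic GMP in cumulus cells, was lower in IVM than in PM by 0.92 ± 0.17. Of 10 G protein exchange and cycling factors, 2 were higher and 4 lower in IVM and 1 was higher and 4 lower in VVM, with GPSM2 lower by 1.48 in IVM and 1.47 in VVM. Of 9 phospholipase C and calcium release genes, 5 were higher and 2 lower in IVM and 5 were higher and 1 lower in VVM. They included the calcium channels ITPR2 (1.66 ± 0.31 in IVM) and ITPR1 (1.62 ± 0.20 in VVM) and the kinase PRKCA (1.09 ± 0.25 in IVM and 1.86 ± 0.23 in VVM).

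Of 6 genes of purine and cyclic GMP supply, 1 was higher and 2 lower in IVM and 0 were higher and 3 lower in VVM. NOS2, a nitric oxide synthase, averaged 6.81 ± 0.34 in IVM, 7.20 ± 0.69 in VVM and 11.14 ± 0.97 in PM (SD), lower than in PM by 4.33 ± 0.49 in IVM and 3.93 ± 0.45 in VVM. Of 9 RAP and POPDC effectors, 0 were called in IVM and 1 was lower in VVM. Of 8 cyclic nucleotide-gated channels and exporters, 0 were called in IVM and 1, the exporter ABCC4, was higher in VVM (0.91 ± 0.20).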

How the data were processed

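Cumulus cell RNA (50 ng per sample, amplified in 2 rounds and labelled with biotin, per the labels) was hybridised to 11 arrays. The deposited values are intensity on a linear scale, made by the authors with RMA in Affymetrix Expression Console, per the submitters' processing notes; versions are not given in the sources used here. RMA usually brings all arrays to 1 distribution, but the array medians of the deposited values still differed, at 5.43 to 5.53 (log2) in IVM and VVM and 5.34 to 5.36 in PM, so centring each array was tried. The values were turned to log2 without a pseudocount.

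Of 52865 probe sets, 99 controls were left out and 52766 tested. Symbols came from the platform annotation: 24956 probe sets had 1 symbol, 361 several and 27449 none. Each gene is represented by the brightest of its single-symbol probe sets (mean log2 over the 11 arrays). This left 14132 genes; 6375 had several probe sets to choose from. The 109 members had 223 probe sets, 52 members had 1, and 107 members matched RefSeq by gene identifier. A probe set of PRKAR1A shared with another symbol was left out. No genome positions or sequences were used.

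Group means were fitted to all 11 arrays with limma 3.58.1 in R 4.3.3 (lmFit, eBayes, 8 residual and 3.30 prior degrees of freedom), and p-values were adjusted by Benjamini-Hochberg over all tested probe sets for each of 3 comparisons. On simulated data over 52766 probe sets, 55% of changes of 1 log2 unit and 91% of changes of 2 were recovered for IVM against VVM, 63% and 88% for IVM against PM, and 63% and 93% for VVM against PM. The false calls numbered 7 of 153, 11 of 162 and 9 of 165. Far fewer probe sets were changed in the simulation than were called in the data. The recovery and false-call rates of the real comparisons can therefore differ from these.

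The members and gene lists were chosen with earlier results of these data known. Genes were named by rule: up to 12 largest called rises and falls per comparison, 32 measured genes of a set of 41, and up to 4 largest differences per role, 68 genes in all; GNB3, RGS1, RGS11, RGS13, RGS18, RAPGEF6 and other members outside these 68 were named after their values were seen. Same-numbered samples did not deviate together (correlations of -0.11 to 0.10), so the numbers were not taken as pairs. Alternatives tried were other normalizations, filters, probe set rules, array weights, covariates, a replicate block and leaving out arrays.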

Additional observations from a re-analysis of the deposited data

Results flagged for a closer look

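In 20 of 218 groups of 4 arrays, 1 array lay far from the other 3 in the gap test for outliers; chance alone marks about 1 in 20 groups. The widest gap was that of RGS2 in PM replicate 1, at 10.83 against 5.89 to 6.30 in the other PM arrays. The same array was high for PRKAR2A (5.99 against 5.65 to 5.67) and AKAP14 (2.90 against 2.60 to 2.64).

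VVM replicate 4 was high for GNAI1 (11.61 against 10.89 to 10.95 in the other VVM arrays), AKAP9 (8.73 against 7.97 to 8.08) and ADCY6 (7.54 against 7.29 to 7.33), and low for CREM (8.45 against 9.31 to 9.46) and PDE4D (5.07 against 5.49 to 5.53). VVM replicate 2 was high for AKAP8L (7.04 against 6.62 to 6.65) and RGS6 (4.39 against 4.06 to 4.10), and VVM replicate 3 was low for ADCY5 (5.21 against 5.58 to 5.62).

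PM replicate 2 was low for RGS16 (5.17 against 5.56 to 5.62 in the other PM arrays) and PDE4A (5.06 against 5.29 to 5.32) and high for GNAO1 (4.34 against 4.01 to 4.04). PM replicate 3 was low for RGS10 (9.60 against 10.31 to 10.41) and PDE6C (2.37 against 2.50 to 2.51) and high for GNA13 (5.37 against 4.45 to 4.58). PM replicate 4 was low for PDE4D (4.96 against 5.26 to 5.32) and GNG10 (9.46 against 9.56 to 9.58) and high for PDE6H (4.37 against 3.82 to 3.88).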

How the results depend on the processing

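The cause of each change below was not tested. The counts are given without the share of all genes under the same alternative, so they show no change particular to these genes. The 11 genes called between IVM and VVM were 7 with array weights, 7 without PM replicate 1 and VVM replicates 2 and 3 together, 3 with the hybridisation controls as a covariate, and 6 to 12 when single arrays were left out (6 without IVM replicate 1 or 2, 7 without VVM replicate 2). The 45 called between IVM and PM were 16 when a 2-fold change was also required, 27 with the 3′ to 5′ control difference as a covariate, 0 with the hybridisation covariate (18 at an unadjusted p under 0.05), and 32 to 46 without single arrays. The 36 called between VVM and PM were 23 with a mean log2 of at least 6, 10 at 2-fold, 15 without the 3 arrays, 16 with a leukocyte covariate, 12 with the hybridisation covariate, 22 with the 3′ to 5′ covariate, and 27 to 41 without single arrays. With the replicate number as a block, 9 genes were called between IVM and VVM, 35 between IVM and PM and 32 between VVM and PM. It is not stated whether same-numbered samples belong together. Of 92 calls, those held in every fit without 1 array numbered 5 of 11 between IVM and VVM (CREB1, CREBRF, GNAI1, RAPGEF4 and RGS19), 28 of 45 between IVM and PM and 23 of 36 between VVM and PM. Leaving aside the 2-fold requirement, calls held under every alternative that kept the gene in 2 (CREBRF and RAPGEF4), 0 and 9 genes. The last were ADCY6, CREB1, GNB5, GNG4, PDE5A, RAPGEF4, RGS10, RGS2 and RGS7. Of these 9, ADCY6 (-0.93) and GNG4 (0.66) changed by less than 2-fold. The filter at a mean log2 of at least 6 removed GNG4, at a mean of 5.48.

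Directions turned in 24 cases. Between IVM and VVM, AKAP17A was 0.20 without cross-hybridising probe sets, PDE5A -0.28 without the 3 arrays and -0.51 with the leukocyte covariate, PRKACB 0.10 with the hybridisation covariate, and RGS10 0.13 as the mean of its probe sets and 0.0088 with the hybridisation covariate. Between IVM and PM, the probe set of largest variance gave -0.84 for CREB5, 0.61 for GNAI1, -0.96 for GNB1 and -0.92 for PDE6A. The mean of probe sets gave -0.047 for GNB1 and 0.062 for RGS12, and AKAP17A was 0.34 without cross-hybridising probe sets. The hybridisation covariate gave -0.0062 for ADCY8, -0.11 for GUCY2D, 0.071 for PRKAR2B, 1.87 for RGS4 and 0.45 for RGS7. Between VVM and PM, AKAP6 was -0.12 by largest variance and RGS12 0.082 as the mean of probe sets. PDE4B was -0.53 without the 3 arrays, -0.80 with the leukocyte covariate and -0.41 with the hybridisation covariate, and RGS1 was -0.80 with the leukocyte covariate. Signal over background was not given, which limits what can be said of dim genes.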

Other observations

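Among the 109 genes, 13 are best known from the phototransduction cascade of rods and cones, a list chosen after their values were seen and so given with no test of the list. Of these, 7 were called higher in IVM than in PM: PDE6A, PDE6C, GNAT1, GNGT2, GUCY2D, RGS9 and RGS9BP, where 25.0% of all genes were called higher. In VVM 5 were higher than in PM, where 18.0% of all genes were: PDE6A, GNB3, GNGT2, RGS9 and RGS9BP. As the list was chosen after the values were seen, counts above these shares are not a result about these genes. None of the 13 was called between IVM and VVM with its brightest probe set. A dimmer PDE6A probe set was lower in IVM than in VVM (-1.20, adjusted p = 0.00323) and than in PM (-0.92, adjusted p = 0.00383). All 3 group means of PDE6C and of GNAT1 lay below the array medians. The differences of the 13 genes from PM lay between -0.38 and 1.12 in IVM and between -0.34 and 0.69 in VVM. With centred arrays, 5 were higher and 1 lower in IVM, and 4 were higher and 1 lower in VVM, the lower gene being GNAT2 in both. The shares of all genes with centred arrays are not given here.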
